A study of Mus musculus with 18 samples.

Results

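Cholesterol synthesis was followed in mouse lung through 8 genes: Srebf2, Insig1, Hmgcs1, Idi1, Fdft1, Sqle, Lss and Cyp51. The genes were chosen by name for their place in the pathway, and every array probe whose RefSeq accession belongs to 1 of them was taken, which gave 10 of the 55681 probes and 8 of the 20660 genes that could be named. Srebf2 and Fdft1 had 2 probes each and the others 1, and where there were 2, the brighter probe stands for the gene.

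All 18 mice were males of the transgenic strain MutaTMMouse, about 12 weeks old, dosed by oral gavage daily for 28 days. The 5 vehicle mice received olive oil alone. The exposed mice received the 4PAH mixture (benzo(a)pyrene, benz(a)anthracene, benzo(b)fluoranthene and chrysene) in olive oil, at 12.5 (low dose, 4 mice), 25 (medium dose, 5 mice) or 50 (high dose, 4 mice) mg BaP equivalents/kg-bw/day. Lungs were taken 72 h after the last dose, so the values describe whole lung tissue some days after exposure ended, and fewer cells of a type and less RNA per cell cannot be told apart in them. Each lung RNA was labelled with Cy5 and hybridized on its own array with Cy3-labelled Universal Mouse Reference RNA, which is pooled from cell lines and was the same on every array. A log2 ratio below therefore means lung over reference, and it can be compared between mice for 1 gene but not between genes.

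Cells make cholesterol from acetyl-CoA. Hmgcs1 forms HMG-CoA, Idi1 interconverts the activated isoprene units, Fdft1 joins farnesyl units to squalene, Sqle oxidises squalene, Lss closes the ring to lanosterol and Cyp51 removes a methyl group from lanosterol. Srebf2 encodes SREBP2, the transcription factor that turns these genes on when membrane sterol is low, and Insig1, itself a target, holds the SREBP precursor in the endoplasmic reticulum when sterol is high. In lung, alveolar type 2 cells use cholesterol in surfactant, and alveolar macrophages clear it.

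SREBP2 acts through a sterol regulatory element (SRE), commonly together with CCAAT-binding and GC box-binding factors, so the sequence before the start of these genes is shown. RefSeq promoter windows of GRCm38.p6, 250 bases before to 50 after the start, were found for 6 of the 8 genes: Srebf2, Insig1, Hmgcs1, Idi1, Lss and Cyp51. Both strands were searched for TCACNCCAC (SRE), CCAAT and GGGCGG (GC box). Only exact matches were counted, with N as any base, so an element with other letters would be missed. The SRE letters were in 1.24% of 32851 windows of this length and in 1 of the 6, that of Hmgcs1, where TCACCCCAC begins at position -137. CCAAT was in 37.4% of all windows and GGGCGG in 35.7%, and both were in all 6. The windows of Hmgcs1 (the SRE match, with 4 CCAAT matches), Idi1 (2 CCAAT matches, and the gene with the largest difference from vehicle at any dose) and Srebf2 (the regulator itself, 1 CCAAT match) are printed on the gene's own strand, which is the plus strand for all of them. Capitals mark the SRE match and CCAAT, which reads ATTGG where it lies on the other strand.
Hmgcs1 (chr13:119690101-119690400): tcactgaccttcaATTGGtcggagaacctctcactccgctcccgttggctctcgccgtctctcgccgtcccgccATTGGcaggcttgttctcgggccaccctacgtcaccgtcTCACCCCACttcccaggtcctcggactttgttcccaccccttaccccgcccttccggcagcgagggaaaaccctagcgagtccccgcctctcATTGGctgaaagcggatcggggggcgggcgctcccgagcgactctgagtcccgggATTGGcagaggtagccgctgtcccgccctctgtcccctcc
Idi1 (chr13:8885356-8885655): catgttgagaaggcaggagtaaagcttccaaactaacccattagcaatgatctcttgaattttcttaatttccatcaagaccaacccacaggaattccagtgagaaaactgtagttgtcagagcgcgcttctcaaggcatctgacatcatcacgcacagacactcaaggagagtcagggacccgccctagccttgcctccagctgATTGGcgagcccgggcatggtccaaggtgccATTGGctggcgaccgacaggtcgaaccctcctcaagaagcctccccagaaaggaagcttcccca
Srebf2 (chr15:82147019-82147318): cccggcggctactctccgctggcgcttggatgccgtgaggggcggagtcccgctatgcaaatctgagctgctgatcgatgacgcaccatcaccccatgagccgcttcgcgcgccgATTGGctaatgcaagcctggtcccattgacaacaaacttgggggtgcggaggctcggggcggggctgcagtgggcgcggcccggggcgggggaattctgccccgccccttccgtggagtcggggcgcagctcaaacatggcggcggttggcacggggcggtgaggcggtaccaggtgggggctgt
These matches are descriptions of letters. No binding was measured.

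None of the 8 genes passed the threshold used here at any dose of the 4PAH mixture. A probe was called when its Benjamini-Hochberg adjusted p in limma was at most 0.05 and its fold change at least 1.5. Of the 10 probes, 0 were called at the low dose, where 0.0898% of all probes were called. None was called at the other doses either, where 0.726% of all probes (medium) and 1.2% (high) were, or between the high and the low dose (0.0449%). With 10 probes and background shares this small, a count of 0 does not set these genes apart from other genes. At an unadjusted p below 0.05, 0, 1 and 2 of the 8 genes passed at the low, medium and high dose, against 9.26%, 19.7% and 20.0% of all named genes. Adjusted p-values in limma lay between 0.266 and 0.988 for the 8 genes over the 3 doses.

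The differences that were measured were small and mostly below vehicle. In the low dose group 7 of the 8 genes had a lower mean than vehicle, in the medium dose group 5 and in the high dose group 7. Their median log2 fold changes were -0.17, -0.08 and -0.16, beside medians of 0.01, 0.02 and 0.02 over all named genes, of which 46.3%, 45.1% and 43.6% lay below vehicle. Between the high and the low dose, 4 of the 8 were lower and 4 higher, with log2 differences from -0.11 to 0.08. The direction depended on the loess step: when arrays were only centred on their median, 5, 3 and 3 of the 8 lay below vehicle, with medians of -0.05, 0.05 and 0.04 beside 0.06, 0.06 and 0.10 over all named genes. Idi1 and Cyp51 stayed below vehicle and Fdft1 above it at every dose under that centring too. The 3 comparisons share the same 5 vehicle mice, so their agreement in sign is not independent.

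**Figure D1:**
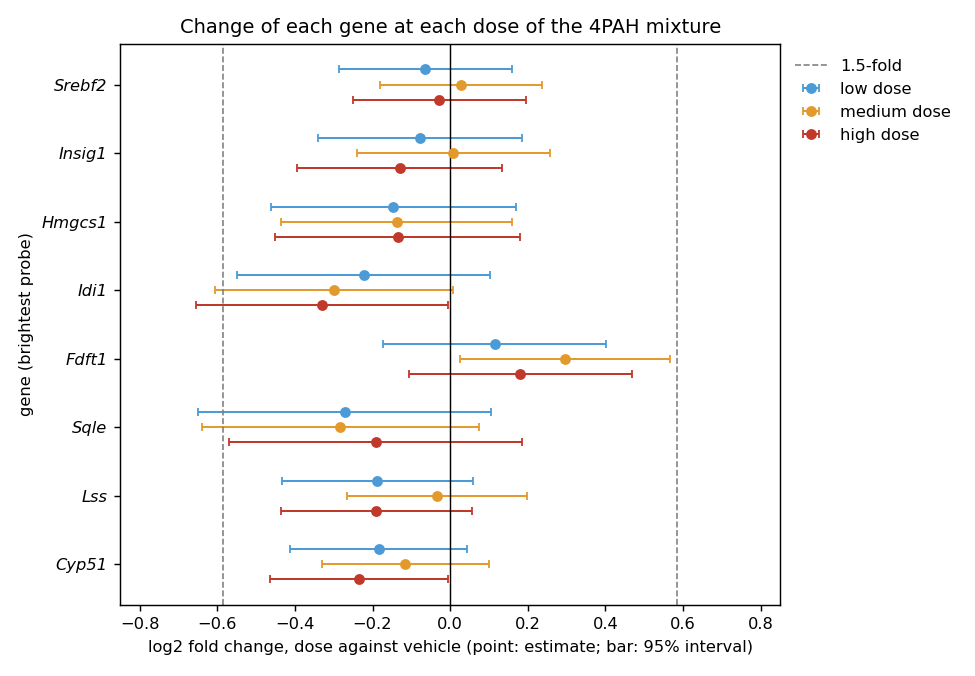
Log2 fold change of each of the 8 genes (rows) at the low, medium and high dose against vehicle (x axis), with 95% intervals from limma; dashed lines mark 1.5-fold. Point estimates reach from -0.33 for Idi1 at the high dose to 0.30 for Fdft1 at the medium dose, and the intervals of 7, 6 and 7 of the 8 genes lie inside the dashed lines at the 3 doses in rising order.

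The precision of the arrays limits how large a change could have gone unseen. The 95% interval of the fold change stayed inside 1.5-fold in both directions for 7, 6 and 7 genes at the 3 doses in rising order. The intervals that reached past 1.5-fold were those of Sqle at the low and medium doses and Idi1 at the medium and high doses. For high against low dose, all 8 intervals stayed inside 1.5-fold.

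Srebf2, the regulator, had the smallest difference of the 8 genes at the low and high doses, and Insig1 at the medium dose. Its log2 ratios were -0.99, -1.26, -1.03, -1.25 and -0.77 in vehicle mice 1 to 5 and -1.20, -1.14, -1.08 and -1.07 in low dose mice 6, 7, 9 and 10. They were -1.16, -1.08, -1.09, -1.09 and -0.74 in medium dose mice 11 to 15 and -1.16, -0.82, -1.22 and -1.16 in high dose mice 16, 17, 18 and 20. The 4 groups overlapped throughout, with 1 mouse in the medium and 1 in the high dose group above the rest of its group. Log2 fold changes were -0.06, 0.03 and -0.03 (SE 0.11, 0.10 and 0.11), with limma adjusted p of 0.936, 0.950 and 0.948. The second Srebf2 probe also lay within the same narrow band in every group, with means of -0.92, -1.02, -1.01 and -0.92 from vehicle up to the high dose (SD 0.114, 0.162, 0.187 and 0.0972), and correlated with the first at r = 0.37 over the 18 arrays.

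Insig1, the sterol-responsive brake on SREBP processing, had ratios of 0.31, -0.07, 0.18, -0.14 and 0.21 in the vehicle mice and -0.30, 0.29, -0.04 and 0.14 at the low dose. At the medium dose they were 0.27, -0.01, -0.01, -0.14 and 0.43, and at the high dose -0.01, 0.09, -0.19 and -0.02. Every group spanned 0 and overlapped the others. The log2 fold changes were -0.08, 0.01 and -0.13 (SE 0.127, 0.119 and 0.127; limma adjusted p 0.933, 0.988 and 0.712).

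Hmgcs1, which forms HMG-CoA, had ratios of -0.03, -0.67, 0.32, -0.35 and -0.27 in the vehicle mice and -0.27, 0.02, -0.54 and -0.60 at the low dose. Those of the medium dose mice lay close together, at -0.33, -0.44, -0.26, -0.26 and -0.39, and those of the high dose mice were -0.24, -0.09, -0.51 and -0.50. Vehicle mice held both the highest and the lowest value of the 18. Its log2 fold changes were -0.15, -0.14 and -0.14 (SE 0.152, 0.143 and 0.152; limma adjusted p 0.880, 0.746 and 0.760). On slide 1 the low and high dose values were above vehicle, by 0.22 and 0.18, and on slides 2 and 3 below it.

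Idi1 had the largest difference at the medium and high doses, and Sqle at the low dose. The vehicle values were 0.56, 0.09, 0.86, 0.07 and 0.11, of which those of mice 1 and 3 were the highest of all 18 mice. The low dose mice had 0.09, 0.47, -0.05 and -0.04, the medium dose mice 0.26, 0.13, -0.22, -0.09 and 0.10, and the high dose mice 0.11, 0.29, -0.11 and -0.25. At each dose 2 mice lay below all vehicle mice and the others among them. Log2 fold changes were -0.22, -0.30 and -0.33 (SE 0.156, 0.147 and 0.156), with unadjusted limma p of 0.168, 0.0548 and 0.0472 and adjusted p of 0.779, 0.341 and 0.308. The exact two-sided permutation test over mice gave p = 0.317, 0.175 and 0.175, where the smallest p these group sizes allow is 0.00794. On each of the 3 slides, Idi1 was below vehicle at all 3 doses, with differences from -0.62 to -0.01, both at the medium dose. Slide 3 held 1 mouse of each group and slide 2 held 1 low and 1 high dose mouse, so single values rest on few mice.

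Fdft1, the squalene synthase, went the other way. Its ratios were -0.50, -0.85, -0.23, -0.90 and -0.47 in the vehicle mice and -0.82, -0.37, -0.56 and -0.14 at the low dose. The medium dose mice had -0.26, -0.48, -0.33, -0.34 and -0.06, and the high dose mice -0.21, -0.33, -0.56 and -0.54. Vehicle mice 2 and 4 were the lowest of the 18, and 4 of the 5 medium dose mice lay within the vehicle range. Log2 fold changes were 0.12, 0.30 and 0.18 (SE 0.138, 0.130 and 0.138). At the medium dose the unadjusted limma p was 0.0332, the adjusted p 0.266 and the exact permutation p 0.0952. The second Fdft1 probe was well above background on 1 array only, a vehicle array, and adds nothing to this.

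Sqle, the squalene epoxidase and a rate-limiting step of the pathway, spread most widely. Vehicle values ran from -1.86 in mouse 4 to -0.71 in mouse 3, with -1.06, -1.34 and -1.65 in mice 1, 2 and 5. The low dose mice had -1.88, -1.39, -1.76 and -1.37, the medium dose mice -1.45, -1.82, -1.72, -1.74 and -1.32, and the high dose mice -1.53, -1.18, -1.70 and -1.66. Of the 13 exposed mice, 12 lay inside the vehicle range. The log2 fold changes were -0.27, -0.28 and -0.19 (SE 0.182, 0.171 and 0.182; limma adjusted p 0.765, 0.479 and 0.702).

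Lss, the cyclase that makes lanosterol, had vehicle values of -0.70, -0.87, -0.48, -1.21 and -1.16. The low dose mice had -1.22, -1.16, -1.09 and -0.82 and the high dose mice -0.98, -1.01, -1.08 and -1.22. The 5 medium dose mice had -0.89, -0.92, -0.94, -0.94 and -0.90, an SD of 0.0211 against 0.308 in vehicle. Vehicle mice 1 and 3 stood above all exposed mice, and the other vehicle mice lay among them. The log2 fold changes were -0.19, -0.03 and -0.19 (SE 0.118, 0.112 and 0.118; limma adjusted p 0.746, 0.943 and 0.490).

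Cyp51, the lanosterol demethylase, had vehicle values of -1.56, -1.87, -1.46, -1.84 and -1.85 and low dose values of -2.05, -1.67, -1.79 and -2.10. Medium dose values were -1.75, -1.97, -1.84, -1.69 and -1.91, and high dose values -1.80, -1.89, -1.90 and -2.22. At the high dose 3 of the 4 mice lay below every vehicle mouse, 2 of them only just. Log2 fold changes were -0.18, -0.12 and -0.24 (SE 0.110, 0.104 and 0.110). At the high dose the unadjusted limma p was 0.0444, the adjusted p 0.298 and the exact permutation p 0.143. Cyp51 was below vehicle at all doses on all 3 slides, with differences from -0.37 (high dose) to -0.06 (medium dose), some of them of 1 mouse against 1. Srebf2, Insig1, Hmgcs1, Fdft1, Sqle and Lss each differed in sign between slides at some dose.

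**Figure D2:**
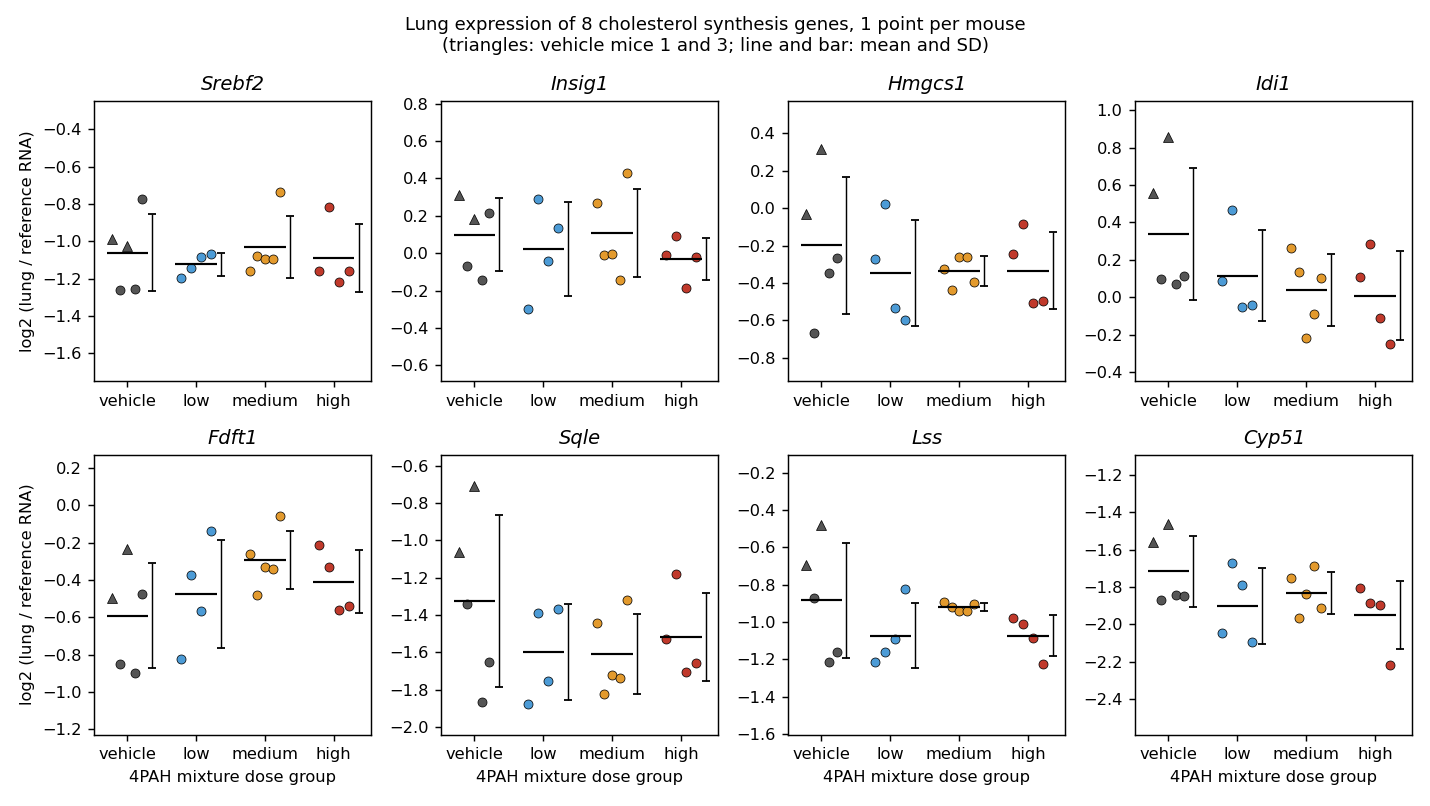
Log2 ratio of lung to reference RNA (y axis, the same span in each panel but a different centre) for the 8 genes in the vehicle, low, medium and high dose mice, 1 point per mouse; lines and bars are group means and SDs, and triangles are vehicle mice 1 and 3. Groups overlap in every panel, and the triangles are the 2 highest vehicle points in 5 of the 8 panels.

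The spread between mice was often widest among the vehicle mice, which was not tested. The vehicle SD was the largest of the 4 group SDs for 5 of the 8 genes, among them Sqle (0.460 in vehicle against 0.257, 0.214 and 0.236 in the exposed groups), Hmgcs1 and Idi1. The share of all genes with the largest SD in vehicle was not determined, so this count does not set the 8 genes apart. When each gene was set to its vehicle mean and the 8 were averaged, the vehicle mice ranged from -0.27 in mouse 4 to 0.35 in mouse 3 (SD 0.256, n = 5). The low dose mice ranged from -0.29 to 0.05, the medium dose mice from -0.16 to 0.07 and the high dose mice from -0.28 to 0.05 (SD 0.145, 0.0980 and 0.154). Vehicle mouse 3 was the highest of all 18 mice for 5 of the 8 genes, and vehicle mouse 1 was highest or second for 5. Both mice were above the vehicle mean for all 8 genes. Over the whole array, vehicle mice 3 and 4 had the lowest median r with the other arrays of all 18 mice, 0.950 and 0.954.

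The 8 genes varied together from mouse to mouse. All 28 pairs correlated positively over the 18 arrays, with Pearson r from 0.10 to 0.80 and a median of 0.50, and Benjamini-Hochberg adjusted permutation p-values over the 28 pairs were below 0.05 for 14 by Pearson's r and 9 by Spearman's rho. The highest was Hmgcs1 with Idi1 (r = 0.80, rho = 0.61, permutation p = 0.00013 and 0.00891, adjusted 0.00224 and 0.0356). Idi1 with Sqle had r = 0.78 and rho = 0.60 (permutation p = 0.00024 and 0.0105, adjusted 0.00224 and 0.0367), and Sqle with Lss r = 0.77 and rho = 0.63 (permutation p = 0.0002 and 0.00571, adjusted 0.00224 and 0.0292). The permutations shuffled all 18 mice without regard to group or slide. Without vehicle mice 1 and 3, the 2 farthest from the median of the members' mean, these fell to 0.73, 0.48 and 0.47, and the median over the 28 pairs to 0.45. Among the other pairs past the adjusted p, Idi1 with Lss fell from 0.59 to 0.01 and Sqle with Cyp51 from 0.54 to 0.09. Insig1 with Idi1 (0.53 and 0.54) and Srebf2 with Fdft1 (0.54 and 0.55) did not fall. The deviations of the mice from their group means gave a median of 0.54, and the 13 exposed mice alone 0.36. The median was 0.53 after scaling between arrays and 0.55 in the Cy5 channel alone. Under median centring it was 0.81, but there the median gene of the array also had r = 0.76 with the members' mean. Within slide 1 (8 mice) the median was 0.50 and within slide 2 (6 mice) 0.81, and slide 3 held 4 mice, too few for a value. The 6 mice of slide 2 included vehicle mice 3 and 4, the highest and lowest vehicle mice in the members' mean. How many pairs of other genes passed on these arrays was not determined. All genes of a mouse share 1 RNA and 1 array, and the part that tissue sampling, RNA quality or hybridization had in these correlations was not tested.

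**Figure D3:**
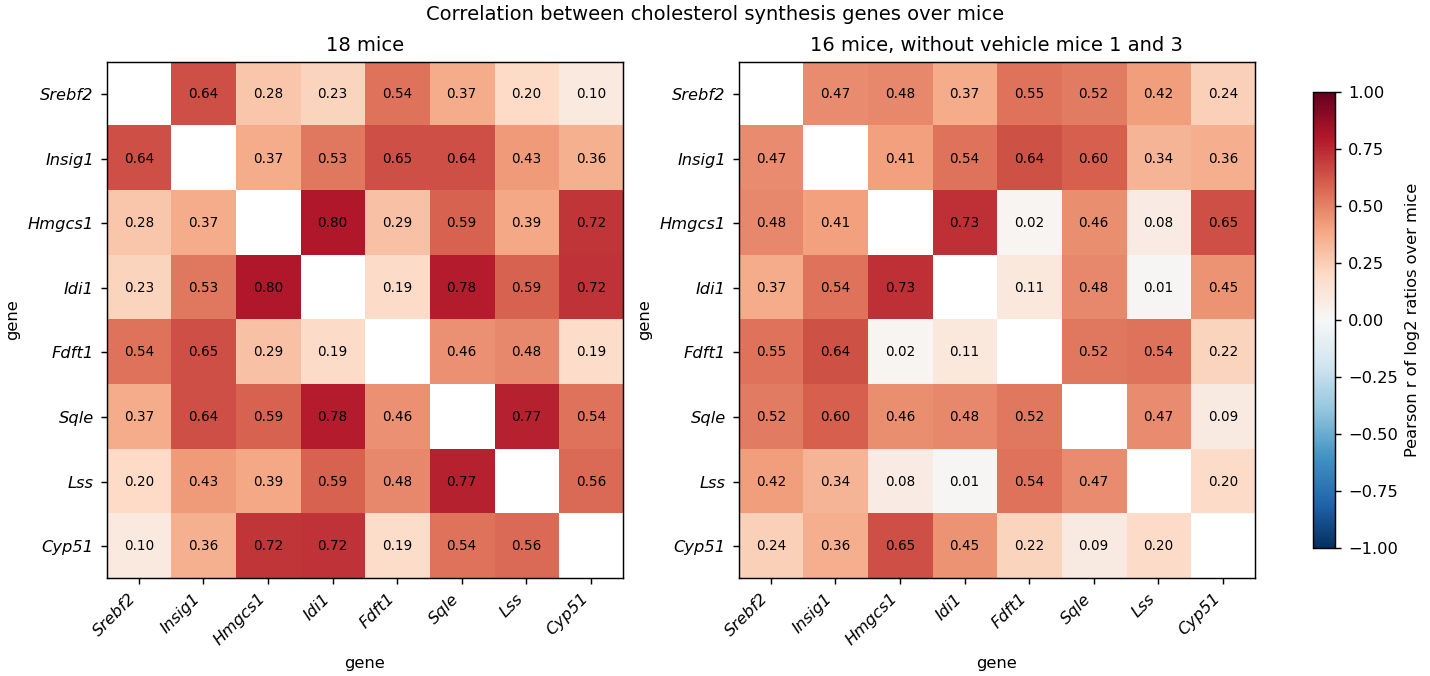
Pearson r of log2 ratios between each pair of the 8 genes over all 18 mice (left) and over 16 mice without vehicle mice 1 and 3 (right); colour runs from -1 (blue) to 1 (red). All 28 values on the left are above 0, with Hmgcs1 and Idi1 at 0.80 and Srebf2 and Cyp51 lowest at 0.10.

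Srebf2 followed the enzymes least closely. Against the mean of the other 7 genes, Pearson r was 0.83 for Sqle, 0.77 for Idi1, 0.69 for Insig1, 0.68 for Lss, 0.67 for Hmgcs1, 0.63 for Cyp51, 0.50 for Fdft1 and 0.44 for Srebf2. Without vehicle mice 1 and 3 the values were 0.64, 0.49, 0.78, 0.32, 0.35, 0.31, 0.63 and 0.53 in that order, so the low place of Srebf2 rests on those mice. Srebf2 correlated most with Insig1 (r = 0.64, rho = 0.71, permutation p = 0.00412 and 0.00149, adjusted 0.0144 and 0.0209), but without vehicle mice 1 and 3 its r with Insig1 was 0.47, against 0.55 with Fdft1, 0.52 with Sqle and 0.48 with Hmgcs1.

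Among the 13427 other genes that were well above background on every array, the gene most like the mean of the 8 was a further enzyme of the same pathway. Msmo1, the sterol C4-methyl oxidase that acts after Cyp51, had r = 0.91 with that mean over 18 mice and 0.85 without vehicle mice 1 and 3, where the median gene had r = 0.01 and 0.499% of genes reached 0.7. It also ranked first after scaling between arrays and in the Cy5 channel alone, and 5 under median centring. Of the cholesterol and fatty acid genes listed for comparison, the next were Fdps, farnesyl diphosphate synthase (r = 0.81, rank 11), Mvd, mevalonate diphosphate decarboxylase (0.78, rank 17), Hsd17b7, a sterol ketoreductase (0.70, rank 65), and Nsdhl, a sterol dehydrogenase (0.69, rank 86). The genes outside those lists with the highest r were Sorcs2, a sorting receptor (0.91), Erg28, a scaffold of the sterol synthesis enzymes (0.86), Xrcc5, the Ku80 subunit of DNA end joining (0.85), Lrg1, a secreted leucine-rich glycoprotein (0.83), and Dbi, an acyl-CoA binding protein (0.83). Without vehicle mice 1 and 3 the values of Fdps, Mvd, Hsd17b7 and Nsdhl were 0.51, 0.63, 0.26 and 0.53, and those of Sorcs2, Erg28, Xrcc5, Lrg1 and Dbi were 0.80, 0.70, 0.75, 0.74 and 0.64.

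The mouse-to-mouse pattern was shared by list. Of 14 other sterol synthesis enzymes, 12 had r above 0 with the mean of the 8 (median 0.61), and both other SREBP2 targets compared did (0.33 for Stard4 and 0.67 for Tmem97). Without vehicle mice 1 and 3, Stard4 had -0.12 and Tmem97 0.37. The 14 enzymes then ran from 0.18 (Lbr) to 0.85 (Msmo1), most of them lower than over 18 mice. Fatty acid synthesis genes, which answer mainly to SREBP1, had a median of 0.34 over 9 genes. They ran from -0.40 to 0.67 over 18 mice and from -0.61 to 0.65 without vehicle mice 1 and 3. The list of genes for the sterol-sensing receptor LXR and for its targets, among them those of cholesterol efflux, ran the other way. Its median was -0.49, with 1 of 7 above 0. Without vehicle mice 1 and 3 its values ran from -0.53 to -0.04, most of them smaller in size than over 18 mice. Abca1, the efflux transporter, had r = -0.71 (0.45 under median centring, where the median gene had 0.76). Npc1, which moves cholesterol out of lysosomes, also had -0.71, and both fell in size to -0.44 without vehicle mice 1 and 3. Npc1 was the lowest of its own list, cholesterol storage, transport and oxidation, which had a median of 0.42 with 5 of 7 genes above 0. Of the 5 SREBP processing genes, with a median of -0.16 and 2 above 0, the lowest were Scap and Mbtps1. Scap, the escort of SREBP, had r = -0.56, and Mbtps1, a protease that cuts it, -0.62. Markers of lung cell types gave list medians from -0.14 (club cells) to 0.36 (fibroblasts), with alveolar type 2 markers at 0.15 and alveolar macrophage markers at 0.08. These correlations describe 18 mice, were ranked after the values were known, and carry no test.

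**Figure D4:**
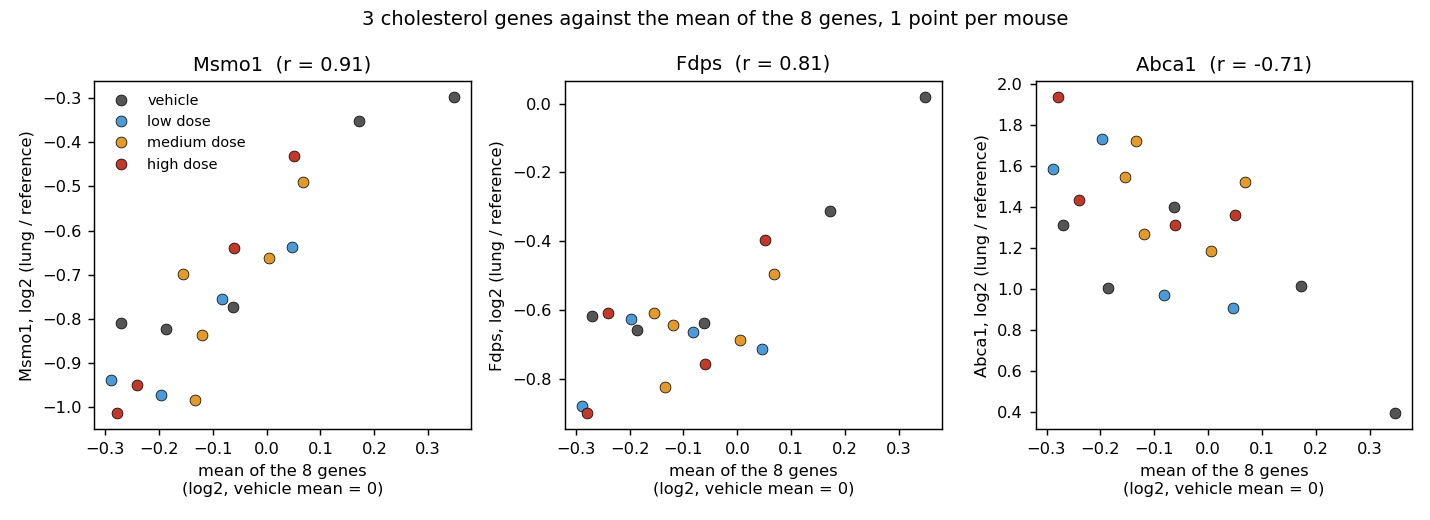
Log2 ratio of Msmo1, Fdps and Abca1 (y axes) against the mean of the 8 genes set to a vehicle mean of 0 (x axis), 1 point per mouse coloured by group. Msmo1 and Fdps are higher and Abca1 lower in mice with a high mean, and vehicle mouse 3, at 0.35, is the point farthest to the right in each panel. Under median centring Abca1 has r = 0.45 with the mean, where the median gene of the array has 0.76.

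None of the other cholesterol and fatty acid genes was called at any dose, out of 45 genes in 6 lists, where 0.16%, 0.934% and 1.51% of all named genes were called at the low, medium and high dose by their brightest probe. By adjusted p alone, which passed 0.247%, 4.82% and 5.61% of all named genes, 0 of the 45 passed at the low dose, 5 at the medium and 2 at the high.

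The enzymes around the 8 genes did not pass the test. Of the 14 other sterol synthesis enzymes, 11, 11 and 9 were below vehicle at the low, medium and high dose, with median log2 fold changes of -0.18, -0.11 and -0.03 and adjusted p of at least 0.139 in limma (9, 5 and 2 of the 14 below vehicle under median centring). At the high dose, the values with the lowest unadjusted p were 0.20 for Lbr, a sterol C14 reductase (adjusted p 0.168), -0.27 for Pmvk, phosphomevalonate kinase (0.217), -0.22 for Fdps (0.414) and 0.18 for Sc5d, the sterol C5 desaturase (0.639). Msmo1 had -0.21, -0.12 and -0.15 at the 3 doses.

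Both other SREBP2 targets compared, Stard4 and Tmem97, were below vehicle at every dose (1 of the 2 under median centring at each dose). Stard4, a soluble sterol carrier, fell at the medium dose by 0.32 on the log2 scale (limma adjusted p = 0.0211), with -0.14 and -0.13 at the low and high doses. Tmem97, which binds NPC1, had -0.10, -0.12 and -0.27 (adjusted p 0.862, 0.585 and 0.113).

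The genes that process SREBP had log2 differences from vehicle between -0.23 for Srebf1 at the low dose and 0.13 for Mbtps1 at the high dose, and none passed the test. High dose values were 0.08 for both Insig2 and Scap.

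Of the 9 fatty acid synthesis genes, 8, 7 and 8 were below vehicle at the low, medium and high dose (6, 4 and 3 under median centring), and 1 passed. Acaca, the acetyl-CoA carboxylase that commits carbon to fatty acids, fell at the medium dose by 0.45 (limma adjusted p = 0.0227) and had -0.38 and -0.39 at the low and high doses (adjusted p 0.298 and 0.0618). At the medium dose Scd1, the stearoyl-CoA desaturase, had -0.66 (adjusted p 0.0618) and Fasn, the fatty acid synthase, -0.36 (0.0867). Elovl6 had -0.14 at the high dose.

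Sterol storage and phospholipid remodelling held the genes with the lowest adjusted p of the 45. Soat1, which esterifies cholesterol for storage in droplets, had a mean log2 ratio of -0.17 ± 0.104 (SD, n = 5) in vehicle mice, against -0.52 ± 0.0733 (low dose, n = 4), -0.59 ± 0.178 (medium, n = 5) and -0.54 ± 0.130 (high, n = 4). Its lowest vehicle value, -0.30, was above the highest values of the 3 exposed groups, -0.44, -0.32 and -0.41. Soat1 fell at the medium dose by 0.42 and at the high dose by 0.37 (limma adjusted p = 0.00679 and 0.0209), and had -0.35 at the low dose (adjusted p 0.165). Lpcat3, an LXR target that remodels phospholipids, fell by 0.36 and 0.44 at the medium and high doses (limma adjusted p = 0.0314 and 0.0122). Cyp27a1, a mitochondrial sterol hydroxylase, rose by 0.29 at the medium dose (limma adjusted p = 0.0228), with 0.23 at both other doses. Its signal was low, with a mean Cy5 intensity of 122 in vehicle mice, and was not well above background in vehicle mouse 3. Each of these changes, and those of Stard4 and Acaca, lost its adjusted p when arrays were only median centred. Soat1 at the medium dose kept it without each mouse in turn (adjusted p at most 0.0246), and at the high dose lost it without vehicle mouse 3 or high dose mouse 16 or 18 (up to 0.0980). Lpcat3 lost it at the high dose without high dose mouse 16 or 17 (up to 0.0549), and at the medium dose without vehicle mouse 1, 3 or 5 or medium dose mouse 11, 12, 14 or 15 (up to 0.0907) and in a fit of those 2 groups alone. Cyp27a1 lost it without vehicle mouse 3 or medium dose mouse 11 or 12 (up to 0.0680), in the fit of 2 groups and with the scanner software's ratios, which gave a log2 fold change of 0.49. Acaca lost it without vehicle mouse 1 or 5 or medium dose mouse 12 or 14 (up to 0.0695). Stard4 lost it without vehicle mouse 1 or 5 or medium dose mouse 11 (up to 0.0626), in the fit of 2 groups, in the Cy5 channel alone and with the scanner software's ratios.

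Other genes of these lists did not pass. At the high dose Abca1 had 0.49 (adjusted p 0.194), Mylip, a ubiquitin ligase induced by LXR, 0.23, and Abcg1, an efflux transporter, 0.17. Lipa, the lysosomal acid lipase, had -0.18 and Scarb1, the HDL receptor, 0.19.

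**Figure D5:**
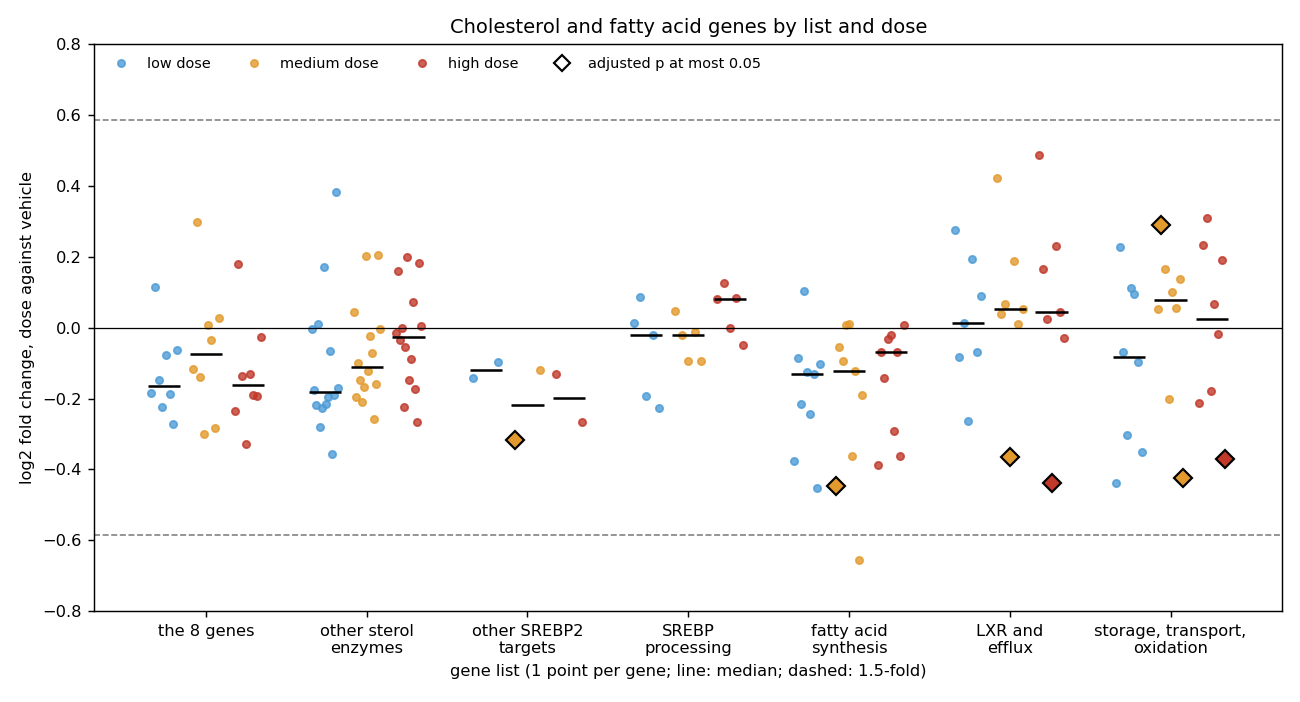
Log2 fold change against vehicle (y axis) of each gene in the 8 chosen genes and in 6 lists of related genes (x axis), by dose; lines are medians, dashed lines 1.5-fold, and diamonds mark an adjusted p of at most 0.05. The 8 genes hold no diamond, and under median centring no diamond is left among the 7 shown here; the 7 diamonds are Stard4, Acaca, Lpcat3, Soat1 and Cyp27a1 at the medium dose and Lpcat3 and Soat1 at the high dose.

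Some markers of lung cell types differed from vehicle by more than the 8 genes did, and none passed the test for high against low dose. The fibroblast collagens Col1a1 and Col3a1 fell at the medium dose by 0.86 and 0.97 and at the high dose by 0.64 and 0.87. Of the 4 endothelial markers Pecam1 rose by 0.69 and 0.74 at these doses, while Kdr, Cdh5 and Cldn5 were all below vehicle (list medians -0.21 and -0.15), and Kdr fell by 0.38 at the high dose, past the adjusted p but not the fold. The 4 B cell markers were above vehicle at every dose (medians 0.53, 0.66 and 0.51), and of these Cd79b and Ms4a1 rose by 0.70 and 0.70 at the medium dose. Of the 6 T and natural killer cell markers Gzma fell by 2.25 at the high dose, where 2 others, Cd3g and Cd8a, were above vehicle by 0.07 and 0.21 and the list median was -0.31. The 7 alveolar type 2 markers were below vehicle for all 7 at the medium and high doses, with medians of -0.26 and -0.23 (6 and 3 of them under median centring, and 6 and 2 after scaling between arrays), and Abca3 at both doses and Slc34a2 at the high dose passed the adjusted p but not the fold.

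Under median centring none of these marker changes passed the adjusted p, with log2 fold changes of 0.71 and 0.83 for Pecam1, 0.83 for Cd79b, 0.80 for Ms4a1, -1.92 for Gzma, -0.63 and -0.38 for Col1a1, -0.72 and -0.56 for Col3a1, -0.14 for Kdr, -0.14 and -0.09 for Abca3 and -0.20 for Slc34a2. Pecam1 and Gzma, and the collagens at the medium dose, kept an adjusted p under 0.05 in every other setting and without each mouse in turn. The collagens at the high dose lost it without high dose mouse 16 or 18, and Col1a1 also in the fit of 2 groups. Kdr lost it in the Cy5 channel alone and without high dose mouse 16 or 17. Both B cell markers lost it in the fit of 2 groups, with the scanner software's ratios, and without vehicle mouse 3 or 4 or medium dose mouse 12 or 14, and Cd79b also in the Cy5 channel alone and without low dose mouse 9, medium dose mouse 13 or 15 or vehicle mouse 5. Abca3 and Slc34a2 lost it in the Cy5 channel alone and after scaling between arrays, and Abca3 also in the fit of 2 groups at the medium dose and in the authors' table at the high dose. Slc34a2 lost it with normexp background correction and the scanner software's ratios too, and without any 1 of 7 mice (high dose 16, 17 and 18 and vehicle 1 to 4). Abca3 lost it at the high dose without any 1 of 7 (high dose 16, 17 and 18 and vehicle 1, 3, 4 and 5) and at the medium dose without any 1 of 5 (medium dose 11, 12 and 15 and vehicle 3 and 4).

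The 4 alveolar macrophage markers passed at no dose, with a summed Cy5 signal of 7483 to 32059 in vehicle and 15342 to 54784 at the high dose. The summed signal of cardiomyocyte markers varied from 2602 to 83753 between mice. That of adipocyte markers varied from 1029.5 in a medium dose mouse to 26226.5 in a high dose mouse. Surfactant, club and alveolar type 1 markers were well above background on every array. The part that cell composition had in the values of the 8 genes was not tested.

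All brightest probes of the 8 genes were well above background in both channels on every array, and none was saturated. Over the 18 arrays the median signal was 110 to 142 in Cy5 and 75 to 89 in Cy3, and 51.5% to 61.1% of probes were well above background in Cy5. In the Cy3 reference channel alone, the 8 genes differed between dose and vehicle arrays by -0.10 to 0.05 (log2). Each of the 3 slides held all 4 groups, but the position across the slide followed the dose group, so position and dose cannot be told apart. The mice are separate animals, and the labels tie none to a litter.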

How the data were processed

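Lung RNA from 18 mice was measured on 2-colour Agilent arrays. The authors deposited Feature Extraction files (version 11.0.1.1 per the file headers) with raw spot intensities in both channels and log10 ratios from that software, and a table of LOWESS-normalized log2 ratios. Median spot intensities without background subtraction, as in the study's methods, were loess-normalized within each array (control and outlier spots weighted 0), control spots were dropped and replicate spots averaged. The 4 groups were fitted by limma 3.58.1 in R 4.3.3 over all 55681 probes with Benjamini-Hochberg adjustment (the study used MAANOVA, which was not run here). In data simulated for high dose against vehicle, with 200 of 55595 probes changed by a log2 of 1, 98% were recovered and 1.51% of calls were false. The simulated noise was independent between probes and held no slide or array effect. The largest difference of the 8 genes from vehicle was 0.33 in size, and recovery of changes that small was not tested. Probes were named through RefSeq accessions (27235 probes). Single genes were also tested by exact two-sided permutation over mice, and correlations by 100000 permutations.

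The members, gene lists and tests were chosen with earlier results of these data known. Genes named were all members, list genes that were called, up to 4 others of each list with the lowest p at the high dose, called markers, and the 5 genes inside and 5 outside the lists most correlated with the members' mean. Some list genes are not reported here and were left out of the list counts. Further genes (Npc1, list genes past the adjusted p alone, and the markers Kdr, Cdh5, Cldn5, Cd3g, Cd8a, Abca3 and Slc34a2) were named after their values were seen, as were the scaling checks of lists and correlations. The number of arrays limits the precision.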

Additional observations from a re-analysis of the deposited data

Results flagged for a closer look

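Srebf2 was the only one of the 8 genes with a mouse far from the rest of its group by Dixon's 95% criterion, out of 32 combinations of gene and group tested, of which chance gives about 1 in 20. Medium dose mouse 15 had a log2 ratio of -0.74, against -1.08 for the next highest mouse of its group, a gap of 0.811 of the group's range. High dose mouse 17 had -0.82, against -1.16 for the next highest, a gap of 0.852 of the range. Without mouse 15 the medium dose log2 fold change of Srebf2 was -0.05 in place of 0.03, and without mouse 17 the high dose value was -0.12 in place of -0.03.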

How the results depend on the processing

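No member was called at any dose, or for high against low dose, under any of the 11 alternatives over all mice or without any 1 mouse. Past the adjusted p alone, the exception was Cyp51 at the high dose after scaling between arrays, with a log2 fold change of -0.34 (adjusted p 0.0455 in limma), below 1.5-fold; other Cyp51 values at that dose had the same sign. Of 246 fold changes recomputed over all mice 12 changed sign, 8 of them under median centring, and of 432 recomputed without 1 mouse 13 did. Many of these values could not change sign. Quantile scaling of mean intensities between arrays, the fit of 2 groups and the filter for probes well above background left every fold change as it was. The slide block did so at the medium dose. Leaving out a mouse moved only the comparisons that hold its group, so the other values of the 432 were fixed in advance. Under median centring the low dose gave 0.028 for Srebf2 and 0.0045 for Insig1, the medium dose 0.049 for Hmgcs1 and 0.046 for Lss, and the high dose 0.15 for Srebf2, 0.026 for Insig1, 0.11 for Hmgcs1 and 0.057 for Sqle. At the medium dose, Srebf2 was -0.0039 after scaling between arrays and -0.032 as the mean of both probes, and Insig1 was -0.0064 in the authors' table and -0.10 in the Cy5 channel alone. Without each mouse in turn, Srebf2 ran from -0.11 to 0.0080 (low dose), from -0.045 to 0.10 (medium) and from -0.12 to 0.044 (high), Insig1 from -0.17 to 0.029 (low) and from -0.072 to 0.071 (medium), and Lss from -0.12 to 0.066 (medium). Median centring also left 3, 32 and 80 probes of the whole array called over the doses in rising order, against 50, 404 and 670 after loess; the cause was not tested. No paired analysis was possible by mouse number because no number occurs in more than 1 group; slide, which held all 4 groups, was fitted as a block and is among the 11 alternatives.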
